A study of Rattus norvegicus with 40 samples.

Results

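Of the 32545 genes in a table of rat muscle read counts, the 7 described here are those of the mitochondrial genome that encode subunits of respiratory complex I: mt-Nd1 (ENSRNOG00000030644), mt-Nd2 (ENSRNOG00000031033), mt-Nd3 (ENSRNOG00000033615), mt-Nd4l (ENSRNOG00000031053), mt-Nd4 (ENSRNOG00000029707), mt-Nd5 (ENSRNOG00000029971) and mt-Nd6 (ENSRNOG00000029042). They were listed by Ensembl identifier and not by a rule on their measured values, though earlier results of these data were known. All 7 had reads in every library. RNA was sequenced from the gastrocnemius (calf, hind limb) and the triceps (fore limb) of 20 male Wistar rats. There were 10 rats aged 20 months and 10 other rats aged 22 months, so 40 libraries fell into 4 groups of 10. Wistar is an outbred strain, only males were used, and no younger group was included. The comparisons asked whether the 7 genes differed between these ages and between the muscles. For the gastrocnemius, the study places 20 months in an early sarcopenic phase and 22 months in the sarcopenic phase. It describes the muscle loss of this strain as specific to the hind limbs.

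Complex I is the first enzyme of the respiratory chain. It passes electrons from NADH to ubiquinone and pumps protons across the inner mitochondrial membrane, and a working muscle depends on it for ATP. Most of its subunits are encoded in the nucleus, whereas the 7 mitochondrial ones form the core of the membrane arm. Mitochondrial DNA is transcribed into long RNAs that are cut into single messages, so its genes share promoters. Nd6 is encoded on the opposite strand from the other six.

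Read counts were scaled to CPM, the count of a gene relative to the library total, with library sizes corrected by TMM (trimmed mean of M values), which moved library sizes by factors of 0.823 to 1.29. The 40 libraries held from 10983887 to 68580194 counted reads. The smallest count of any member was 972, for Nd4 in a triceps library of 22 months, where counting error alone is 3.21%, so the spread between animals and not the depth set the precision. The table gave no gene symbols, lengths or sequences, so no level per length could be given for comparing genes, marker genes of muscle and of other cells were not analysed here, and no sequence is shown. These are bulk samples, in which fewer cells of a type and less RNA per cell cannot be told apart.

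The 7 genes together took a large part of each library, between 1.47% and 6.55% of all counted reads. The share was 2.89% ± 1.36 in gastrocnemius at 20 months (SD, n = 10 in this and the other groups) and 2.77% ± 0.761 at 22 months. In triceps it was 2.98% ± 0.977 at 20 months and 2.57% ± 0.789 at 22 months. These groups overlapped widely, and the group means lay closer together than their SDs.

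One animal stood out at 20 months. In replicate 1 of 20 months the 7 genes took 6.55% of reads in gastrocnemius and 5.49% in triceps, which was the highest share of the 20 animals in both muscles. The next highest animals were replicate 4 of 22 months in gastrocnemius, with 3.97%, and replicate 6 of 22 months in triceps, with 4.24%. These 2 animals were also high in the other muscle, at 3.27% in triceps for replicate 4 and at 3.89% in gastrocnemius for replicate 6. The lowest library of each muscle came from an animal that was not among the lowest in the other muscle. Replicate 10 of 22 months had the lowest gastrocnemius share, 1.47%, and was 10th of 20 in triceps with 2.67%. Replicate 3 of 22 months had the lowest triceps share, 1.48%, and was 11th of 20 in gastrocnemius with 2.57%.

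**Figure D1:**
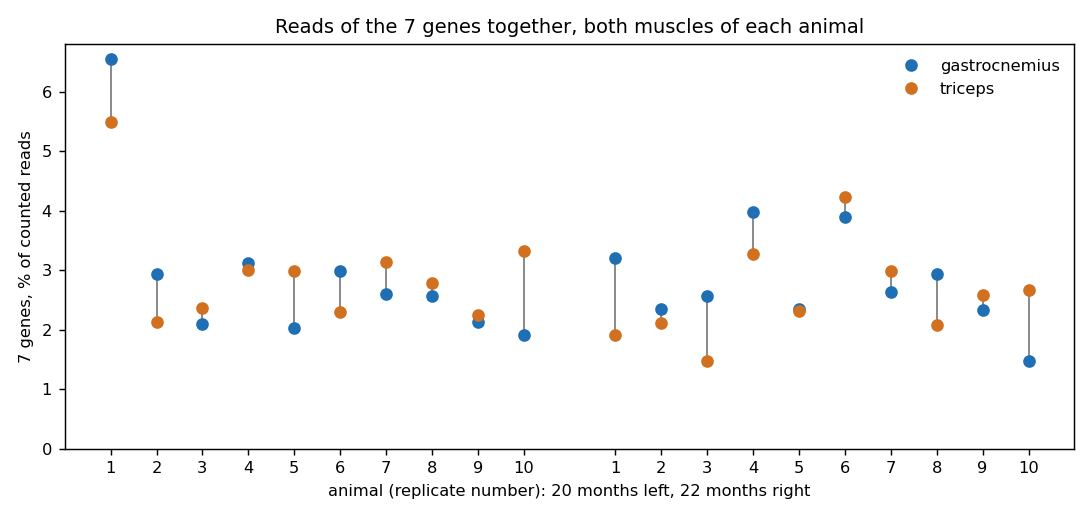
Reads of the 7 genes as a percent of all counted reads (vertical axis), for both muscles of each of the 20 animals (horizontal axis, replicate number within each age). Each line joins the gastrocnemius (blue) and triceps (orange) library of 1 animal, and replicate 1 of 20 months stands above the others in both muscles, at 6.55% and 5.49%.

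By gene, triceps at 20 months had the highest group mean for 6 of the 7 members, with Nd6 as the exception, and gastrocnemius at 22 months had the lowest mean for 6 of 7, with Nd4 as the exception. Neighbours in this order never stood clear of each other, since all 21 steps between neighbouring group means were below the smaller of their SDs. The extreme libraries were often the same for all members. In gastrocnemius at 20 months the highest library was replicate 1 for 7 of 7 genes, in gastrocnemius at 22 months the lowest was replicate 10 for 7 of 7, and in triceps the lowest was replicate 2 at 20 months and replicate 3 at 22 months, for 7 of 7 each.

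**Figure D2:**
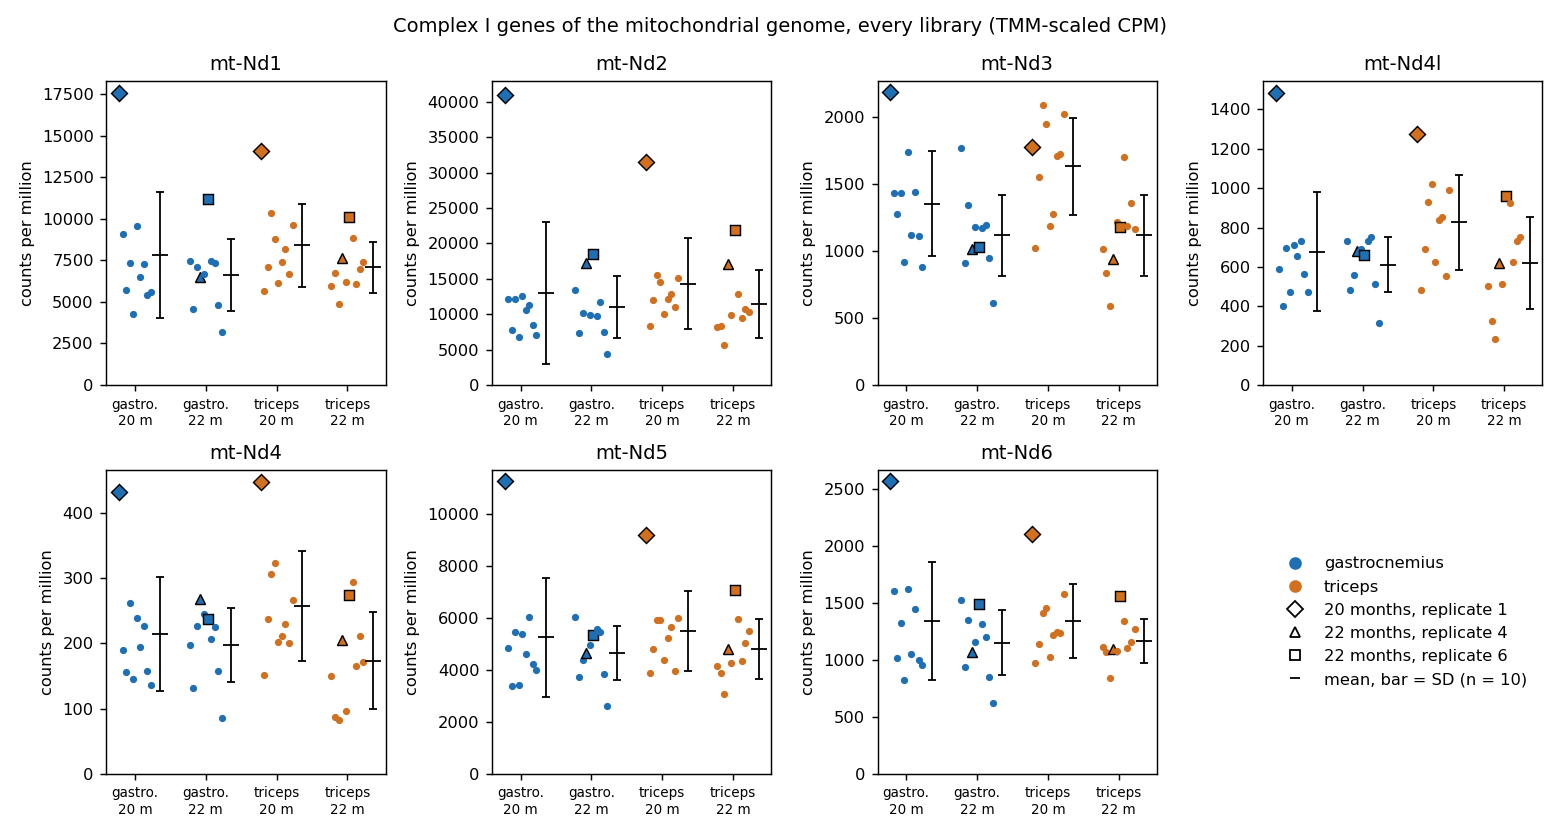
TMM-scaled CPM (vertical axis, linear, from 0) of each of the 7 genes in every library, by muscle and age (horizontal axis), with the mean and SD of the 10 libraries of a group beside the points. Replicate 1 of 20 months (diamond) is the highest library of its group for 13 of the 14 gene and muscle pairs, with Nd3 in triceps as the exception, and replicates 4 and 6 of 22 months are marked by a triangle and a square.

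Nd1 builds the part of the membrane arm that meets the peripheral arm, next to the ubiquinone site. Its level in gastrocnemius ran from 4296 to 17558 CPM at 20 months, with a median of 6890, and from 3164 to 11196 CPM at 22 months, with a median of 6893. In triceps it ran from 5632 to 14079 CPM at 20 months (median 7781) and from 4850 to 10112 CPM at 22 months (median 6859). The ages overlapped in both muscles, and in gastrocnemius the medians were nearly the same.

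Nd2, Nd4 and Nd5 are the large subunits that resemble antiporters and each form a proton channel. Nd2 in gastrocnemius lay between 6770 and 41015 CPM at 20 months (median 10932) and between 4396 and 18509 CPM at 22 months (median 9995). The value of 41015 CPM belonged to replicate 1, and the next library of that group had 12555. In triceps Nd2 lay between 8332 and 31550 CPM at 20 months (median 12520) and between 5645 and 21925 CPM at 22 months (median 10108). Again the top library at 20 months was replicate 1, followed by one with 15542 CPM. At 22 months the top libraries of both muscles were replicates 6 and 4, at 18509 and 17270 CPM in gastrocnemius and at 21925 and 17083 CPM in triceps.

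Nd4 in gastrocnemius ranged from 137 to 433 CPM at 20 months (median 192) and from 85.4 to 268 CPM at 22 months (median 216). In triceps it ranged from 152 to 448 CPM at 20 months (median 234) and from 83.0 to 294 CPM at 22 months (median 168). Replicates 2, 3 and 5 of 22 months were low in triceps, with 86.8, 83.0 and 96.2 CPM, and 4 of the 10 triceps libraries of 22 months were below the lowest of 20 months. In gastrocnemius of the same 3 animals Nd4 stood at 131, 227 and 246 CPM, so replicates 3 and 5 were low in triceps alone. The other large subunit, Nd5, ranged from 3362 to 11283 CPM in gastrocnemius at 20 months (median 4724) and from 2614 to 6057 CPM at 22 months (median 4812). Its triceps range was 3885 to 9217 CPM at 20 months (median 5451) and 3058 to 7078 CPM at 22 months (median 4580). Without replicate 1, Nd5 at 20 months reached 6050 CPM in gastrocnemius and 5993 CPM in triceps, inside the range of the older animals.

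Nd3, Nd4l and Nd6 are small subunits. Nd3 carries a loop at the joint of both arms, and Nd4l and Nd6 lie in the membrane between Nd1 and the channel subunits. Nd3 in triceps ranged from 1018 to 2088 CPM at 20 months (median 1716) and from 588 to 1703 CPM at 22 months (median 1174). All 10 triceps libraries of 22 months lay below the median of 20 months, 4 of them below its lowest library, and 6 libraries of 20 months lay above the highest of 22 months, so the groups overlapped but were shifted. In gastrocnemius Nd3 ranged from 884 to 2187 CPM at 20 months (median 1353) and from 612 to 1766 CPM at 22 months (median 1099), and 9 of the 10 older libraries lay below the median of the younger ones.

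Nd4l in gastrocnemius ranged from 403 to 1482 CPM at 20 months (median 621) and from 315 to 752 CPM at 22 months (median 671). In triceps it ranged from 481 to 1273 CPM at 20 months (median 845) and from 235 to 963 CPM at 22 months (median 625). The triceps libraries with the lowest Nd4l at 22 months were replicates 3 and 2, which were also those with the lowest Nd4. Nd6, read from the opposite strand, ranged from 827 to 2572 CPM in gastrocnemius at 20 months (median 1184) and from 622 to 1522 CPM at 22 months (median 1178). In triceps its range was 975 to 2107 CPM at 20 months (median 1242) and 838 to 1558 CPM at 22 months (median 1109). The libraries did not keep the strand, so reads of Nd6 and of RNA from the other strand at the same place were counted together.

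With age, none of the 7 genes changed in gastrocnemius past the threshold of adjusted p under 0.01 (edgeR quasi-likelihood test, Benjamini-Hochberg adjustment over 12659 genes), where 0% of all genes tested were called. The count of genes with an unadjusted p under 0.05 was 1307, or 10.3% of those tested, 0 of them members, and DESeq2 called 1 gene, which was not a member. Expressed as 22 minus 20 months, the log2 differences were -0.23 ± 0.23 for Nd1, -0.23 ± 0.31 for Nd2, -0.27 ± 0.17 for Nd3, -0.14 ± 0.19 for Nd4l, -0.10 ± 0.20 for Nd4, -0.16 ± 0.19 for Nd5 and -0.21 ± 0.19 for Nd6 (SE, n = 10 per age). All 7 were below 0 with TMM scaling, while Nd4l and Nd4 turned to 0.0046 and 0.035 with library totals, and the median was -0.21 beside 0.01 for all genes tested. The smallest adjusted p among them was 0.562, for Nd3, from the edgeR test, and the largest was 0.863, for Nd4. For Nd2 the 95% confidence interval, not adjusted for the number of genes, ran from -0.87 to 0.42, or from 0.548-fold to 1.33-fold. Changes of Nd2 within those bounds were thus not excluded at that level.

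The direction in gastrocnemius rested on 1 library for several members. Without the gastrocnemius library of replicate 1 of 20 months, the edgeR log2 difference was 0.16 ± 0.22 for Nd2, 0.06 for Nd4l, 0.07 for Nd4 and 0.03 for Nd5, while Nd1, Nd3 and Nd6 stayed below 0, between -0.17 and -0.02. The 7 values without it had a median of 0.03, and the smallest adjusted p was 0.764.

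In triceps the age differences of Nd3, Nd4 and Nd4l were the largest in size, and again 0 of the 7 genes passed, beside 0% of 12345 genes tested. There were 1084 genes with an unadjusted p under 0.05 by edgeR, or 8.78% of those tested, of which 2 were members, and DESeq2 called 0 genes. Nd3 had the smallest p of the members, with a log2 difference of -0.54 ± 0.15 (SE, n = 10 per age), an unadjusted p of 0.00200 and an adjusted p of 0.513. That p ranked 35th among the 12345 genes, and the unadjusted 95% interval of the fold was 0.552 to 0.859. Nd4 differed by -0.56 ± 0.22, with an unadjusted edgeR p of 0.0192, an adjusted p of 0.525 and an interval of 0.491-fold to 0.933-fold. The other values were -0.24 ± 0.15 for Nd1, -0.31 ± 0.23 for Nd2, -0.41 ± 0.21 for Nd4l, -0.19 ± 0.15 for Nd5 and -0.20 ± 0.12 for Nd6.

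All 7 members were below 0 in triceps too, with a median of -0.31 beside 0.01 over all genes tested. The muscles came from the same animals, so the sign in one is not independent of the sign in the other. Without the triceps library of replicate 1 of 20 months the members stayed below 0, from -0.52 to -0.08, with a median of -0.13, so that library took the median from -0.13 to -0.31. The unadjusted edgeR p of Nd4 was then 0.052, which left 1 member, Nd3, under 0.05. Other alternatives raised that number. It was 3 members by edgeR with a block on the replicate number, beside 1320 of 12345 genes tested. That block ties together rats of different ages that only share a number. The number of members was also 3 without the 3 animals set apart below by their Nd2 to Nd3 ratio, beside 874 of 12201 genes. Over all 20 fits that each left out 1 library, Nd3 stayed between -0.63 and -0.46 and Nd4 between -0.69 and -0.44.

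Between the muscles, 0 of the 7 genes passed at 20 months, where 3.76% of 12426 genes were called by edgeR (467 genes) and 24.9% had an unadjusted p under 0.05, again 0 of them members. When 1 animal was left out, the number called ranged from 206 to 525. The log2 differences, as gastrocnemius minus triceps, were -0.28 ± 0.21 for Nd4l, -0.26 ± 0.20 for Nd4, -0.26 ± 0.16 for Nd3, -0.13 ± 0.30 for Nd2, -0.09 ± 0.22 for Nd1, -0.06 ± 0.20 for Nd5 and 0.01 ± 0.18 for Nd6 (SE, n = 10 animals). The smallest adjusted p was 0.329, for Nd3. Gastrocnemius was the higher muscle in 2 of 10 animals for Nd4, in 3 of 10 for Nd1, Nd2 and Nd3, in 4 of 10 for Nd4l and Nd6, and in 5 of 10 for Nd5. With replicate 1 left out, the difference of Nd2 moved to -0.31 ± 0.16, that of Nd3 to -0.34 ± 0.15 and that of Nd4l to -0.39 ± 0.16. Nd3 and Nd4l, or 2 members in place of 0, then had an unadjusted edgeR p under 0.05 (0.0372 and 0.0216), with adjusted p of 0.162 and 0.118. Over all genes, 3195 of 12360 were under 0.05 in that fit, so 2 of 7 members was close to the share of all genes.

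At 22 months again 0 of 7 passed, although 20.3% of 12565 genes were called by edgeR between the muscles (2552 genes), the highest share of any comparison, and 43.8% had an unadjusted p under 0.05, with 0 members among them. The members lay near 0, at -0.09 ± 0.17 for Nd1, -0.05 ± 0.24 for Nd2, 0.01 ± 0.17 for Nd3, -0.01 ± 0.21 for Nd4l, 0.20 ± 0.23 for Nd4, -0.03 ± 0.15 for Nd5 and -0.01 ± 0.14 for Nd6. Their adjusted p ran from 0.534 to 0.980 and their median was -0.0098, beside 0.0062 over all genes tested. The narrowest interval was that of Nd6, from 0.817-fold to 1.21-fold, so at these 10 animals per age a difference of Nd6 between muscles beyond those bounds lies outside the 95% interval. That of Nd4 was wider, from 0.827-fold to 1.59-fold.

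**Figure D3:**
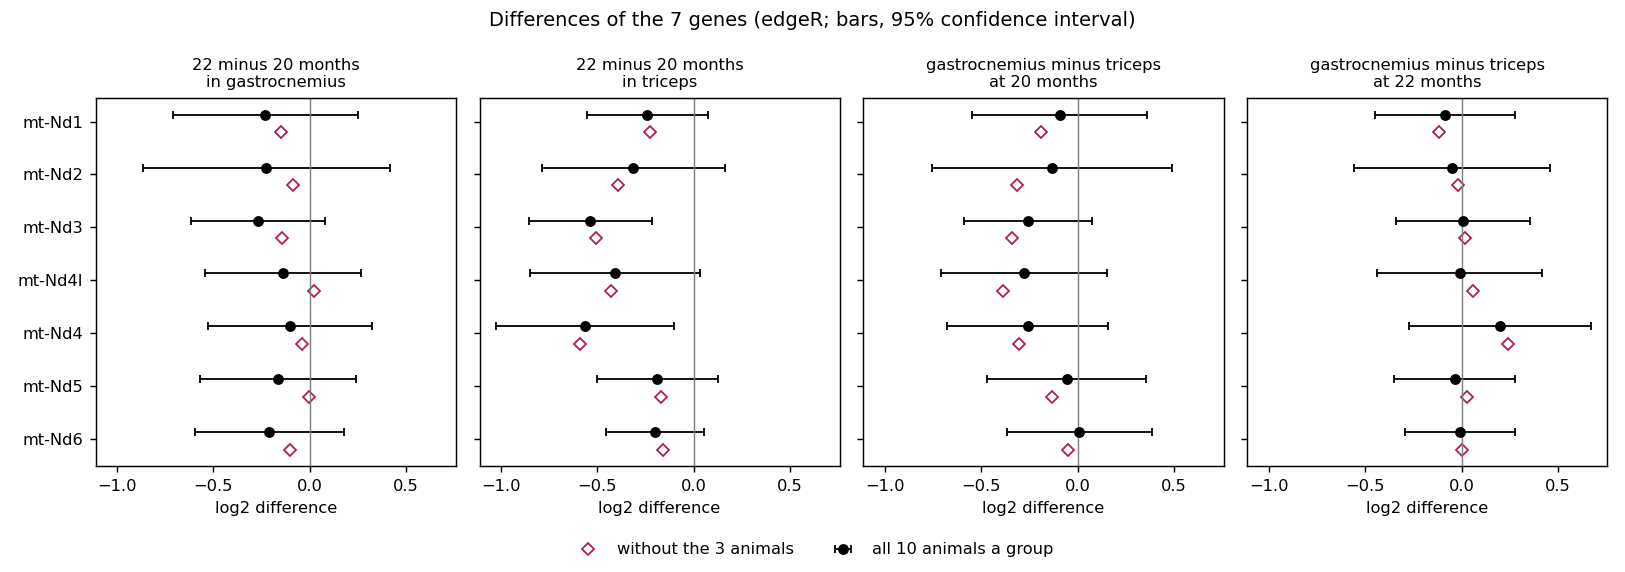
Log2 differences of the 7 genes (vertical axis) in the 4 comparisons of ages and muscles (horizontal axis, log2 units, 0 marked by a line); black points are edgeR estimates with unadjusted 95% confidence intervals and open diamonds are the values without the 3 animals whose Nd2 to Nd3 ratio stood apart. In triceps the age differences of Nd3 (-0.54) and Nd4 (-0.56) have intervals below 0, yet no gene passed after adjustment.

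The age difference in gastrocnemius minus that in triceps was fitted over all 40 libraries. By edgeR 0 of the 7 genes and 0% of 12980 genes passed, with 389 genes at an unadjusted p under 0.05, and DESeq2 called 0. The values were 0.46 ± 0.32 for Nd4, 0.27 ± 0.24 for Nd3, 0.27 ± 0.30 for Nd4l, 0.08 ± 0.40 for Nd2, 0.02 ± 0.26 for Nd5, 0.00 ± 0.29 for Nd1 and -0.02 ± 0.23 for Nd6, each with an adjusted p of 0.999. This fit did not use the pairing of the muscles either. With the animal as a block, Nd4 was at 0.54 ± 0.27 with an unadjusted edgeR p of 0.0619, and 0 members were under 0.05. The age differences of the 7 genes were thus not shown to differ between the muscles.

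The composition of the member reads set some animals apart. In 17 animals, the ratio of Nd2 reads to Nd3 reads lay between 6.12 and 9.92 over 34 libraries, with a median of 7.97. In 3 animals it was far higher in both muscles. It was 18.8 in gastrocnemius and 17.8 in triceps for replicate 1 of 20 months, 17.1 and 18.1 for replicate 4 of 22 months, and 18.0 and 18.6 for replicate 6 of 22 months. No library fell between the lowest of these 6, 17.1, and the highest of the other 34, 9.92. These ratios are not corrected for the lengths of the genes, and they are compared here between animals only. The log2 ratio had an SD of 0.46 between animals in gastrocnemius and 0.45 in triceps, against 0.19 for the difference between the muscles of an animal. This ratio was picked because its values stood apart, so that spread is not typical of the members. The muscle difference had the larger SD for Nd4l to Nd4 (0.27 against 0.19 and 0.24), Nd6 to Nd5, Nd5 to Nd1, Nd6 to Nd1 and Nd4 to Nd5. It had the smaller SD for Nd2 to Nd1, and for Nd3 to Nd1 it lay between the SDs of the muscles. A difference between unrelated values spreads more than either value alone. A larger SD of the muscle difference therefore does not show that the muscles of an animal were unrelated in that ratio.

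**Figure D4:**
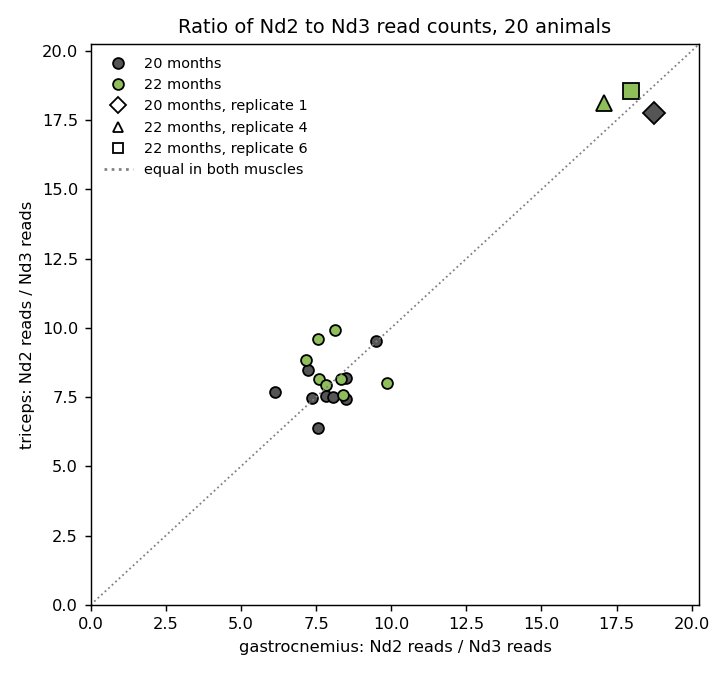
Ratio of Nd2 to Nd3 read counts in gastrocnemius (horizontal axis) and triceps (vertical axis) of each of the 20 animals, both axes linear from 0, with a dotted line where the muscles are equal. The 3 animals, replicate 1 of 20 months and replicates 4 and 6 of 22 months, lie between 17.1 and 18.8 in both muscles, and the other 17 lie between 6.12 and 9.92.

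Of all reads of the 7 members, Nd2 took from 48.1% to 54.9% in the 6 libraries of those 3 animals and from 36.9% to 43.5% in the other 34. Nd3 took from 2.68% to 3.22% in the 6 libraries and from 3.85% to 6.81% in the other 34. Neither pair of ranges overlapped, although a larger share of Nd2 lowers the shares of all other members. Set against Nd1 instead, the ranges did overlap: Nd2 to Nd1 was 1.65 to 2.67 in the 6 libraries and 1.16 to 1.8 in the other 34, and Nd3 to Nd1 was 0.0920 to 0.156 against 0.121 to 0.259. Nd5 took 13.9% to 16.4% against 15.6% to 22.1%, and Nd1 took 20.6% to 29.1% against 24.0% to 31.7%, and both overlapped. As levels, Nd2 of replicates 4 and 6 stood above that of every other animal of 22 months in both muscles, while their Nd3 stood inside the range of the others. The 3 animals were picked out after the values were seen, so the split was given no test, and they include both ages. What sets them apart was not tested.

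Leaving these 3 animals out narrowed the spread of the summed share in every group, which follows from their shares being among the highest. Again 0 of the 7 genes were called in each comparison. Over all genes, edgeR then called 0 for age in either muscle and 0 for the difference of the age effects. Between the muscles it called 525 of 12360 genes at 20 months and 1911 of 12332 at 22 months. The summed share was then 2.49% ± 0.459 in gastrocnemius and 2.70% ± 0.443 in triceps at 20 months (n = 9), and 2.48% ± 0.511 and 2.27% ± 0.477 at 22 months (n = 8). The age differences in gastrocnemius then lay between -0.15 and 0.02 on the log2 scale, with 6 of 7 below 0. In triceps they lay between -0.59 and -0.16, with Nd4 at -0.59 ± 0.22, Nd3 at -0.51 ± 0.18 and Nd2 at -0.39 ± 0.15, and the smallest adjusted edgeR p was 0.696.

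Nd4l and Nd4 lie side by side and overlap in mammalian mitochondrial DNA, and they are carried on 1 message. Nd4l had more reads than Nd4 in 40 of 40 libraries, with a ratio of 2.46 to 5.35, not corrected for gene length. How reads that touch both genes were counted is not given in the sources used here, so the split between them is uncertain. The ratio was 3.17 ± 0.334 in gastrocnemius at 20 months, 3.18 ± 0.494 at 22 months, 3.24 ± 0.413 in triceps at 20 months and 3.66 ± 0.738 at 22 months, and these groups overlapped. Reads of Nd4 were few beside those of Nd5, also a large subunit, at a ratio of 0.0223 to 0.0575 over the 40 libraries. Whether the count of Nd4 follows its RNA level was not tested, and its differences between groups carry that limit. Nd6 to Nd5, neighbours on opposite strands, stayed between 0.220 and 0.332 in all 40 libraries. The strand was not kept, so reads counted for Nd6 can include RNA from the strand of Nd5, and the ratio does not compare the strands. Nuclear copies of mitochondrial DNA can also share reads with any of the 7 genes, and how such reads were counted is likewise not given.

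At 20 months the spread of each member between animals was smaller without replicate 1, except for Nd3 in triceps. The coefficient of variation (SD over mean of CPM) of Nd2 in gastrocnemius at 20 months was 77.7%, higher than in 98.6% of 12980 genes, whose median was 18.6%. Without replicate 1 it was 23.7%, beside a median of 18.2%. In triceps at 20 months, Nd5 and Nd6 were at 28.0% and 24.4% with that animal, beside a median of 18.5%, and at 17% and 15.7% without it, beside 18.6%. With all animals, the lowest value of any member was 16.5%, for Nd6 in triceps at 22 months, where the median gene had 17%. Nd4 was among the more variable members there, at 42.7%.

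Members rose and fell together across libraries. On log2 CPM with each group centred on its mean, Pearson r between members over the 40 libraries was lowest for Nd2 with Nd3, at 0.67, and highest for Nd1 with Nd6, at 0.96, among 21 pairs. Libraries share a total and animals gave a pair of libraries each, so these values are a description only. The summed reads of the members followed Nd2 most closely, with r = 0.99, and Nd3 least, with r = 0.74. The sum contains each member, and Nd2 had the largest share of it, so the high r of Nd2 is partly built in. Among 9746 other genes that averaged 5 CPM or more, 2 came closest to that sum. They were ENSRNOG00000034234, with r = 0.88 and a mean of 31263 CPM, and ENSRNOG00000029145, with r = 0.83 and a mean of 56.8 CPM. The table does not pair these identifiers with names.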

How the data were processed

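The authors deposited 1 table of raw read counts per Ensembl rat gene for all 40 libraries, made from polyadenylated RNA with unstranded TruSeq v2 libraries. The submitters' processing notes name CASAVA 1.8, STAR 2.3.0e, HTSeq and Rnor_6.0, without their settings. The sources used here do not give the annotation release or the treatment of reads that map to several places, and the study's own rat values came from kallisto, another counter. Libraries were grouped by the muscle and age in their labels, and every column was used.

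The tests were run with edgeR 4.0.16 in R 4.3.3. Each comparison kept the genes that had at least 1 CPM in 10 of its libraries, scaled them by TMM and tested them with the two-sided quasi-likelihood F-test. P-values were adjusted by Benjamini-Hochberg over all genes tested, and genes under 0.01 were called. There were 5 comparisons. Standard errors came from the F statistic. Correlations used log2 CPM with a prior count of 2. The named genes are all 7 members, plus the closest genes by pattern, limited to 2 because identifiers have no symbols. The members, lists and tests were chosen with earlier results of these data known.

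The muscles of an animal were paired by the animal number in the labels: the median correlation of their deviations from the group means was 0.158 over 20 animals, 12 of them over 0.1, against -0.03 between different animals of one age, with 50 of 180 pairs over 0.1. Libraries of a muscle from different animals that share a replicate number across the ages had a median of 0.0948, with 10 of 20 pairs over 0.1. The pairing thus rests on the labels, and these correlations alone do not establish it. The main fits left the animal out, and a block on it was an alternative, as were library totals, TMM without the members, DESeq2 1.42.0, limma-voom 3.58.1, no low-count filter, another threshold and leaving out libraries. No pair of libraries in a group agreed within sampling noise (chi-square of at least 12.4 per gene). The test was tried on simulated counts. Fixed lists of other mitochondrial genes and cell type markers need symbols and were not analysed here.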

Additional observations from a re-analysis of the deposited data

Results flagged for a closer look

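Values were looked at again where the highest or lowest of the 10 libraries of a group was separated from its neighbour by more than 0.466 of the range of the group (Dixon's gap at the 95% level). Chance gives such a gap in about 5% of groups, and 14 of 40 sets of values had one, though sets that share libraries are not independent. The 2 of these that are Nd2 to Nd3 ratios cannot be read against that share, since the ratio was picked because its values stood apart. All but 1 belonged to replicate 1 of 20 months. In its gastrocnemius library these were Nd1 at 17558 CPM, Nd2 at 41015 CPM, Nd4l at 1482 CPM, Nd4 at 433 CPM, Nd5 at 11283 CPM, Nd6 at 2572 CPM, the summed share at 6.55% of reads and the Nd2 to Nd3 ratio at 18.8. In its triceps library these were Nd2 at 31550 CPM, Nd5 at 9217 CPM, Nd6 at 2107 CPM, the summed share at 5.49% and the ratio at 17.8. The remaining one was the total count of triceps replicate 4 of 20 months, 68580194 reads, which is a matter of depth.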

How the results depend on the processing

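No alternative called any of the 7 genes in any of the 5 comparisons, and the smallest adjusted p of a member was 0.118. Of 952 recomputed log2 differences of members, 95 changed sign, of which 71 came from leaving out 1 library or animal. The age differences in triceps kept their sign under every alternative run. Without TMM, on library totals, the all-gene median log2 difference was 0.14 in place of 0.0097 for age in gastrocnemius, 0.11 in place of 0.0043 for muscle at 20 months and 0.19 in place of 0.0062 for muscle at 22 months. With library totals, the log2 differences that changed sign were Nd4l (0.0046) and Nd4 (0.035) for age in gastrocnemius, Nd5 (0.021) for muscle at 20 months, Nd1 (0.065), Nd2 (0.11), Nd4l (0.16), Nd5 (0.13) and Nd6 (0.15) for muscle at 22 months, and Nd6 (0.065) for the difference of the age effects. With limma-voom they were Nd6 (-0.043) for muscle at 20 months, Nd4l (0.11) for muscle at 22 months, and Nd6 (0.035) for the difference of the age effects. Without the low-count filter they were Nd4l (0.0012) and Nd6 (0.0050) for muscle at 22 months. Without the 3 animals apart, an alternative chosen after seeing the data, they were Nd4l (0.022) for age in gastrocnemius, Nd6 (-0.049) for muscle at 20 months, Nd4l (0.059), Nd5 (0.027) and Nd6 (0.0039) for muscle at 22 months, and Nd6 (0.056) for the difference of the age effects. Without both libraries of replicate 1 of 20 months, also chosen after seeing the data, it was Nd6 (0.058) for the difference of the age effects.

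With the animal as a replicate block, 506 genes were called between muscles at 20 months, 2647 at 22 months and 0 for the difference of the age effects. It changed no call of a member. The values that changed sign under the block were Nd6 (-0.036) for muscle at 20 months, Nd4l (0.064) for muscle at 22 months, and Nd6 (0.0037) for the difference of the age effects. For age, replicate numbers are shared between different animals (median r 0.0948 over 20 pairs), and a block on them called 0 genes in either muscle.

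Counts over all genes that moved by over 1.5 times were 1 for age in gastrocnemius and 878 for muscle at 20 months with DESeq2, and 1203 at 20 months and 4265 at 22 months with adjusted p under 0.05. When 1 animal was left out, the called genes at 20 months numbered from 206 to 525, and fell by more than 1.5 times without replicate 3 (206), 4 (215), 5 (210), 8 (276) or 9 (238). Leaving out 1 library or animal gave these ranges of the log2 difference where a sign changed. For age in gastrocnemius they were -0.34 to 0.16 for Nd2, -0.21 to 0.059 for Nd4l, -0.17 to 0.067 for Nd4 and -0.22 to 0.026 for Nd5. For muscle at 20 months they were -0.14 to 0.0089 for Nd5 and -0.059 to 0.082 for Nd6. For muscle at 22 months they were -0.14 to 0.0016 for Nd1, -0.11 to 0.030 for Nd2, -0.088 to 0.096 for Nd3, -0.078 to 0.10 for Nd4l, -0.089 to 0.058 for Nd5 and -0.066 to 0.080 for Nd6. For the difference of the age effects they were -0.11 to 0.23 for Nd1, -0.11 to 0.49 for Nd2, -0.080 to 0.23 for Nd5 and -0.098 to 0.15 for Nd6.

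The cause of these sign changes was not tested. No alternative with gene lengths or symbols was run, for want of both.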
